A study of Mus musculus with 3 samples.

Results

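The broad peaks described here are places where precipitated biotin-tagged Utf1 was listed as 1 continuous peak of at least 5000 bp, and that do not belong to one of the very long runs of peaks in the same list. They were chosen by 2 values of the biotin peak list. A peak had to be 5000 bp or longer on chromosomes 1 to 19, and the stretch it belonged to, made by joining peaks with at most 1000 bp between them, had to be shorter than 20000 bp. The rule found 1353 broad peaks among 149498 autosomal biotin peaks, which is 0.905%. They held 8.80 Mb, 4.23% of the sequence in autosomal biotin peaks, and 808026 tags, 5.83% of their tags. A further 327 peaks of 5000 bp or more lay in stretches of 20000 bp or more and were not members.

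The study precipitated Utf1 from KH2 cells, a line of mouse embryonic stem cells that carries a docking site for inducible transgenes, grown in standard serum medium with 15% serum on feeder fibroblasts and crosslinked for 5 min in 1% formaldehyde. There were 3 groups of 1 library each: biotin-tagged Utf1, endogenous Utf1 and a whole-cell extract with no antibody. The first 2 groups come with a peak list, and values of the whole-cell extract were not analysed here. The protocol gives streptavidin beads for the biotin precipitation, while 1 and the same Utf1 antibody is entered for both precipitations. All groups are 1 cell line, and nothing in the labels says how the level of tagged Utf1 compared with the endogenous protein.

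Utf1 is found on the chromatin of pluripotent and germ cells. It is known to be held tightly on chromatin and to lie at many genes of embryonic stem cells, among them developmental regulators that carry both activating and repressive histone marks. In such precipitations a factor bound at 1 short motif usually gives a narrow peak, whereas a protein spread over a domain gives a signal that stays above background for kilobases.

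The biotin list held 152608 peaks and the endogenous list 10506, of which 9612 were autosomal. Library depth is unknown, because only tags inside peaks are listed. Autosomal biotin peaks began at 22 tags and autosomal endogenous peaks at 13 tags. Positions are in mm9. Gene positions and sequences were not used here, since the reference at hand is of another assembly, so regions are named by position only. With 1 library per group no difference has a replicate check, and intervals cover counting error only.

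Broad peaks held more tags, and more tags per kb, than the typical peak of the list. They ran from 5000 to 16540 bp with a median of 5959 bp (interquartile range 5344 to 7043), against a median of 1080 bp for the other 148145 autosomal biotin peaks. A broad peak held a median of 541 tags (432 to 682), from 236 to 10420, and the median of the others was 52. Per kb of peak, the median was 87.0 tags in broad peaks (72.8 to 103) and 46.7 in the others (39.2 to 65.4). The authors' fold enrichment had a median of 8.41 (6.82 to 10.17) in broad peaks and 4.14 (3.28 to 6.01) in the others. These columns belong to the list that chose the members, so they describe the broad peaks and test nothing.

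**Figure D1:**
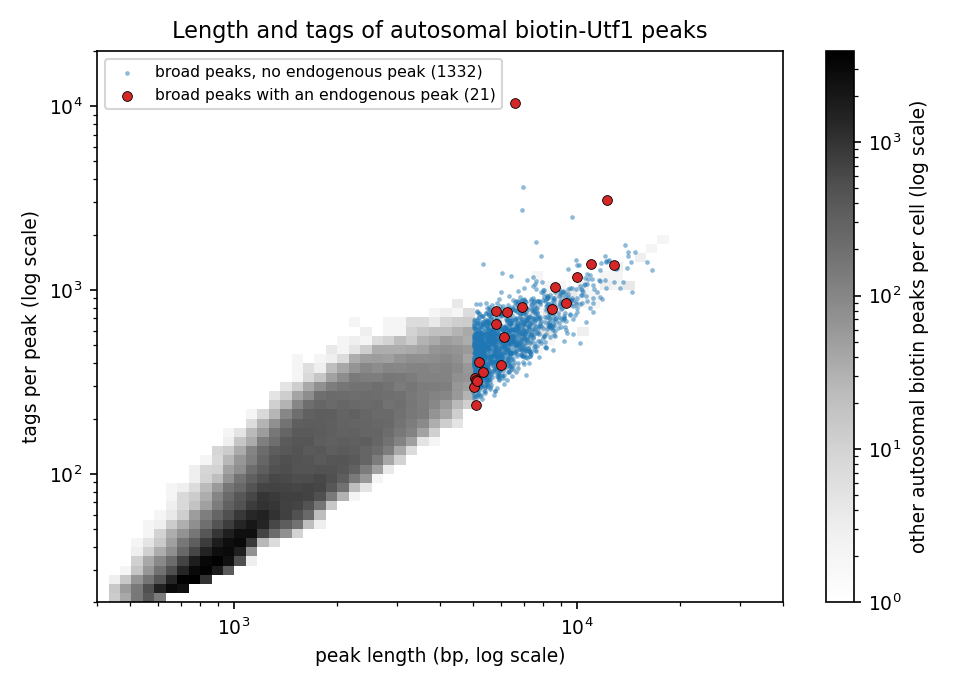
Tags per peak against peak length, both on log axes, for autosomal biotin peaks. Grey cells count the 148145 other peaks, blue points are the 1332 broad peaks with no endogenous peak and red points the 21 with one (1.55%, against 1.19% of all autosomal biotin peaks). Broad peaks run from 5000 to 16540 bp, the other peaks up to 35785 bp in long stretches, and a single broad peak stands at 10420 tags.

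Tag density climbed with length among the shorter peaks and hardly at all within the broad ones. Median tags per kb were 39.2 in peaks under 1000 bp, 53.3 from 1000 to under 2000 bp, 74.1 from 2000 to under 3000 bp and 80.5 from 3000 to under 5000 bp. Inside the broad peaks they were 84.6 under 6000 bp (696 peaks), 86.9 from 6000 to under 8000 bp (457), 90.5 from 8000 to under 10000 bp (140) and 97.3 at 10000 bp or more (60). Across the 1353 broad peaks Spearman's rho was 0.62 between length and tags, 0.08 between length and tags per kb and 0.06 between length and fold. These are descriptions across peaks of 1 library. A longer broad peak thus held more tags in proportion to its length, with little change in density or fold. The peaks of 5000 bp or more inside long stretches had nearly the same medians as the broad peaks, 86.3 tags per kb and a fold of 8.62.

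The threshold of 5000 bp cut through a continuous range. The 5 shortest members were 5000 to 5002 bp long, with 280, 291, 293, 315 and 490 tags and folds of 5.17 to 16.03. The 5 longest peaks under the threshold were all at least 4995 bp long, with 273 to 631 tags and folds of 6.27 to 11.03. At the other threshold, the 5 members in the longest admitted stretches, 19766 to 19990 bp, had folds of 5.19 to 9.09. The 5 peaks in the shortest excluded stretches, 20008 to 20129 bp, had folds of 5.69 to 11.2. Values on both sides of each threshold overlapped.

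The longest broad peak lay on chromosome 15 at 84228845 to 84245384. It covered 16540 bp with 1277 tags (95% interval 1208 to 1349) and a fold of 8.62. On chromosome 12, 110269663 to 110285650 held 1417 tags over 15988 bp with a fold of 11.38. On chromosome 4, 133671197 to 133685989 held 1602 tags over 14793 bp, and its summit lay 91.3% of the way along. The other 5 of the 8 longest, on chromosomes 6, 10, 11 and 2, were 14053 to 14506 bp long with 979 to 1607 tags.

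The largest fold among the broad peaks was 20.16, on chromosome 17 at 25606434 to 25614082, a peak of 7649 bp with 803 tags (748 to 861). The second, 19.48, belonged to a peak of 11715 bp on chromosome 4 at 151860873 to 151872587. The next, 17.75, belonged to one of 9423 bp on chromosome 11 at 119796079 to 119805501. On chromosome 15, 61814367 to 61820291 had a fold of 17.06 and 150 tags per kb, in a 1 Mb window that held only 32 biotin peaks. The windows of the other 7 held 196 to 293. The folds of the 8 went down to 16.48.

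The densest broad peaks were not those with the largest folds. The peak on chromosome 17 at 39979342 to 39985969 had 1572 tags per kb, 10420 tags in all, and at the same time the smallest fold of all members, 1.47. How reads that match more than 1 place in the genome were counted is not known here, and whether such reads add to the tags of peaks with many tags and a low fold was not tested. On chromosome 8, 19923582 to 19930555 had 520 tags per kb and a fold of 3.83, and on chromosome 17, 3078504 to 3085416 had 393 tags per kb and a fold of 3.84. The remaining 5 of the 8 densest had 205 to 260 tags per kb and folds of 3.11 to 9.05. A fold under 4 was listed for 21 of 1353 broad peaks, 1.55%, against 46.8% of the other autosomal peaks. That share was 4.23% in peaks of 3000 to under 5000 bp and 1.22% in those of 5000 bp or more in long stretches. A fold of 10 or more was listed for 375 broad peaks, 27.7% (95% interval 25.3 to 30.2). In the same classes, in this order, it was listed for 4.54%, 20.6% and 34.6%. Many tags and a high fold therefore did not always go together, although rho between tags per kb and fold was 0.52.

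The listed significance piled up at 1 value. In 426 broad peaks (31.5%) 10 times the −log10 of the authors' p stood at exactly 3100, and in all 426 the false discovery rate was 0.17%. The value was 3100 or more in 465. Exactly 3100 was listed for 0.703% of the other autosomal peaks and 9.40% of those of 3000 to under 5000 bp. In peaks of 5000 bp or more in long stretches the share was 33.9%. All peaks at exactly 3100 in these classes also had a false discovery rate of 0.17%. At the other end, 13 broad peaks stood under 500, with 236 to 1602 tags. In 6 of these 13 the summit lay in the outermost 10% at either end of the peak, where 86 of all 1353 broad peaks had it (6.36%). The 86 had a median of 1604 on this scale, and the 510 broad peaks with a summit in the central part of the peak a median of 2783. Ranks by this column among broad peaks thus also moved with the position of the summit.

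The summit of a broad peak was less often central than in other peaks. It was seldom at the very ends, but more often there than in other peaks. It lay in the central part, from 33.3% to 66.7% of the way along, in 510 of 1353 broad peaks, 37.7% (35.1 to 40.3), against 75.7% (75.5 to 75.9) of the other autosomal peaks. With the length divided into 10 equal bins, bins 2 to 9 held 10.9 to 13.8% of the summits each, and the outermost bins 3.47% and 2.88%. Together the outermost bins held 6.36% in broad peaks and 0.0635% in the other autosomal peaks. The share was 0.808% in peaks of 3000 to under 5000 bp and 7.34% in those of 5000 bp or more in long stretches. The median distance from summit to centre was 1364 bp, and from summit to the nearest edge 1736 bp. The peaks of 3000 to under 5000 bp, with 44.6% in the central part, and those of 5000 bp or more in long stretches, with 39.8%, were closer to the broad peaks than to all others together. Both sides of a broad peak were alike, with 51.2% of summits (48.5 to 53.9) nearer the end with the lower coordinate.

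**Figure D2:**
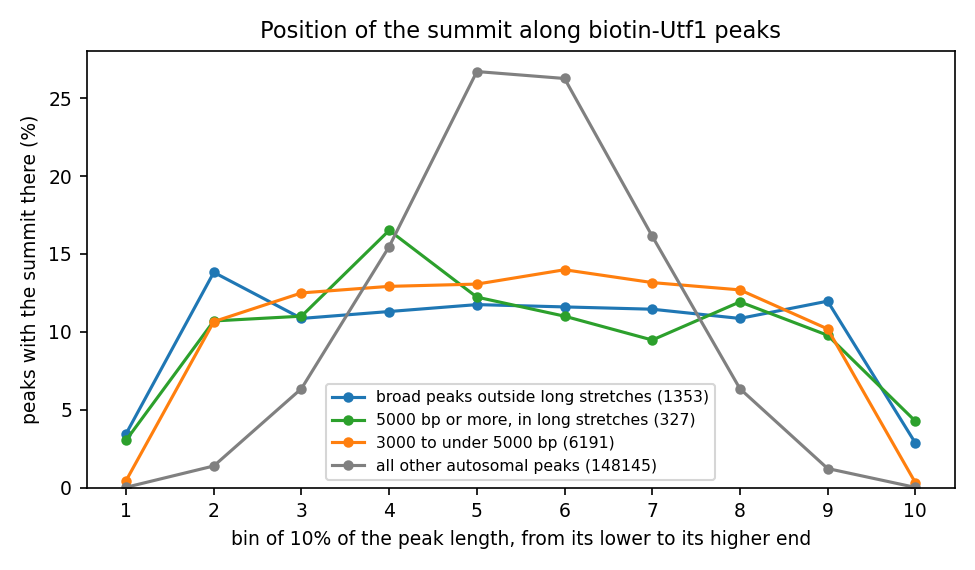
Share of peaks, in percent, whose summit lies in each of 10 equal bins of its length, from the lower to the higher coordinate, for 4 classes of biotin peaks. The broad peaks form a nearly flat line between bins 2 and 9, and all other autosomal peaks together are highest in bins 5 and 6.

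Although each broad peak is 1 entry of the list, most were not alone. Only 400 of 1353, 29.6% (27.1 to 32.1), had no other peak within 1000 bp. That share was 59.6% in the other autosomal peaks and 35.1% in those of 3000 to under 5000 bp. Of the remaining broad peaks, 343 lay in a stretch of 2 peaks, 270 in one of 3 and 340 in one of 4 or more, up to 8. The word single therefore fits the rule only as 1 entry, and not as an isolated site. The median distance to the nearest other biotin peak was 457 bp, against 1586 bp for the other autosomal peaks. For the peaks of 3000 to under 5000 bp it was 553 bp, close to that of the broad peaks. In 419 broad peaks (31.0%) the next peak began within 200 bp. This share was 14.5% in the other autosomal peaks and 27.1% in those of 3000 to under 5000 bp.

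The companions were all under 5000 bp, since a longer peak in the same stretch would itself be a member. These 2022 peaks had a median length of 1473 bp, 78 tags, 50.02 tags per kb and a fold of 4.31. They were thus somewhat larger than the other autosomal peaks, with medians of 1080 bp, 52 tags, 46.7 tags per kb and a fold of 4.14. Of the companions, 1380 (68.2%) were under 2000 bp. Of the 953 broad peaks with companions, 713 (74.8%) also had the largest fold of their stretch. Among the other autosomal peaks median fold rose with length, from 3.45 under 1000 bp to 7.58 from 3000 to under 5000 bp. Companions are shorter by the rule, so the 74.8% cannot be separated from length. It was not calculated for other stretches. Of 1312 stretches that held a broad peak, 1272 held 1, 39 held 2 and 1 held more. A broad peak made up a median of 70.5% of its stretch. Those alone had denser tags, a median of 91.6 per kb against 84.3 with companions, and nearly the same fold, 8.35 and 8.43.

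Broad peaks gathered on some chromosomes. Chromosome 17 had the highest share, 107 of 7383 biotin peaks or 1.45% (1.19 to 1.75), followed by chromosome 4 with 152 (1.31%), chromosome 11 with 144 (1.29%), chromosome 15 with 86 (1.28%) and chromosome 8 with 108 (1.24%). The lowest shares were 0.395% on chromosome 13 (0.250 to 0.591), 0.411% on chromosome 14, 0.432% on chromosome 3 and 0.439% on chromosome 16. Per Mb of chromosome the number ran from 0.172 on chromosome 3 to 1.21 on chromosome 11. The intervals of the 5 highest and the 4 lowest shares did not overlap. Where they lay, broad peaks looked alike: the median fold by chromosome was 7.54 to 10.44, and the median length 5443 to 6397 bp.

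**Figure D3:**
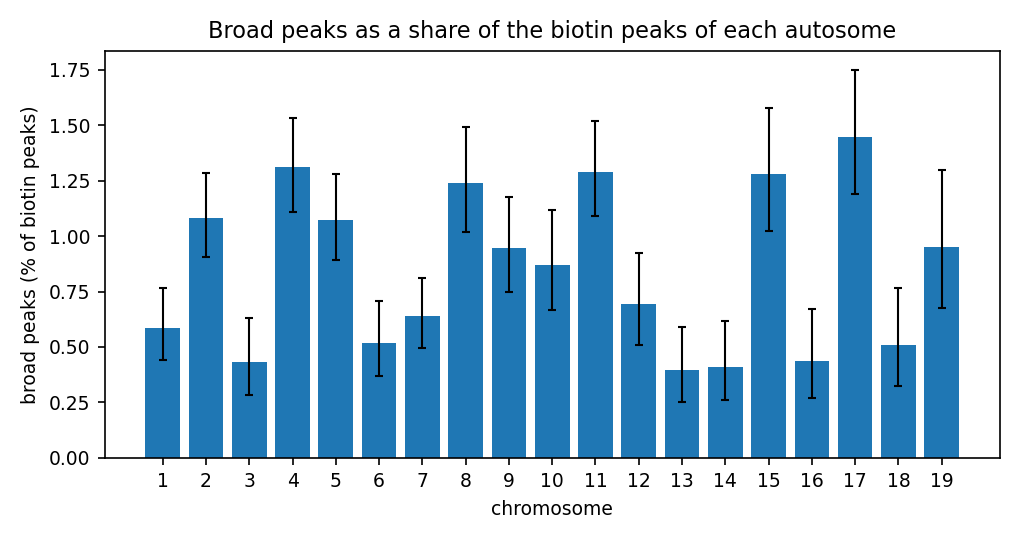
Broad peaks as a percentage of the biotin peaks of each autosome. Bars show the share and lines its exact 95% interval, which covers counting error only. Chromosome 17 stands at 1.45% and chromosome 13 at 0.395%.

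At a finer scale they lay where biotin peaks were dense. Of 2416 windows of 1 Mb with a biotin peak, 499 held a broad peak, and 84 windows with 5 or more broad peaks held 588 of them, 43.5%. Broad peaks were 0.165% (0.118 to 0.225) of biotin peaks in windows with up to 40 of these, 0.268% at 41 to 80, 0.708% at 81 to 150 and 1.74% (1.63 to 1.86) above 150. The densest class held 67.1% of broad peaks and 34.8% of all autosomal biotin peaks. The window of a broad peak held a median of 180 biotin peaks, that of another peak 113, and that of a peak of 5000 bp or more in a long stretch 232. Peaks of 3000 to under 5000 bp lay in windows about as dense as those of broad peaks. Their medians were 184 at a fold under 5 and 171 at a fold of 5 or more. Length and fold of the broad peaks changed little over the classes, with median folds of 7.13, 8.27, 8.62 and 8.45.

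The windows with the most broad peaks were chosen after their values were seen. On chromosome 10, 80000001 to 81000000 held 14 among 255 biotin peaks, and 79000001 to 80000000 next to it held 12. Chromosome 11, 116000001 to 117000000, and chromosome 17, 27000001 to 28000000, held 12 each. These 4 windows held 1, 3, 5 and 6 endogenous peaks. Over the genome, 818 broad peaks (60.5%) had another broad peak within 100 kb. This share was not calculated for any other class of peaks, so whether it is high is not known.

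A small set stood away from other biotin peaks. For 28 broad peaks (2.07%) the nearest other biotin peak was more than 10 kb away. The share was 16.5% in the other autosomal peaks and 3.42% in those of 3000 to under 5000 bp. The farthest was chromosome 8, 56197029 to 56209249, 192995 bp from the next biotin peak, which held 3094 tags over 12221 bp at a fold of 3.11. The next, chromosome 3, 6296981 to 6307960, was 114313 bp away and held 1379 tags at a fold of 7.58. The latter was chosen after its values were seen. Among the 28 the folds ran from 1.47 to 11.89 with a median of 7.47, and tags per kb had a median of 120.

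The endogenous list, which played no part in the choice of members, marked few of them. Of 1353 broad peaks, 21 overlapped an endogenous peak by at least 1 bp, which is 1.55% (0.963 to 2.36). Over all autosomal biotin peaks the share was 1.19%, and for the peaks of 3000 to under 5000 bp 0.743% (0.544 to 0.990). The share in broad peaks is close to that background, and their interval includes it. An endogenous summit lay inside 17 broad peaks, 1.26% (0.734 to 2.00), where all autosomal biotin peaks gave 0.783%. Of the 28 isolated broad peaks 7 had an endogenous peak, which is 25% (10.7 to 44.9). Among the other autosomal peaks of windows holding at most 40 biotin peaks, the kind of window in which 18 of the 28 lay, 4.37% had one. Of all 40 broad peaks in such windows 9 had one, 22.5% (10.8 to 38.5). The 7 isolated peaks with an endogenous peak are among these 9, so this share is not a separate comparison. Long peaks overlap more by length alone, so the number of endogenous summits per Mb of listed sequence was compared next.

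Per Mb, broad peaks held fewer endogenous summits than biotin peaks under 2000 bp, and a number close to that of peaks from 2000 to under 5000 bp. There were 24 summits in 8.80 Mb of broad peaks, 2.73 per Mb (1.75 to 4.06), and 1175 in 199 Mb of other biotin peaks, 5.89 per Mb (5.56 to 6.24), a ratio of 0.463 (0.295 to 0.692). The rate was low in the longer of the other peaks too. Peaks under 1000 bp held 6.30 per Mb and those of 1000 to under 2000 bp 7.997, whereas those of 2000 to under 3000 bp held 2.91 and those of 3000 to under 5000 bp 2.05. Against this last class the ratio of broad peaks was 1.33 (0.777 to 2.22), an interval that includes 1. The autosomes outside biotin peaks held 3.81 per Mb, and the flanks of broad peaks 3.52 (2.30 to 5.16) within 5 kb and 2.98 (2.29 to 3.81) from 5 to 20 kb. Against the nearer flanks the ratio was 0.774 (0.425 to 1.40), an interval that includes 1. The ratio to other biotin peaks also turned to 1.09 (0.649 to 1.72), an interval that includes 1, when only endogenous peaks of 16 tags or more were kept.

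**Figure D4:**
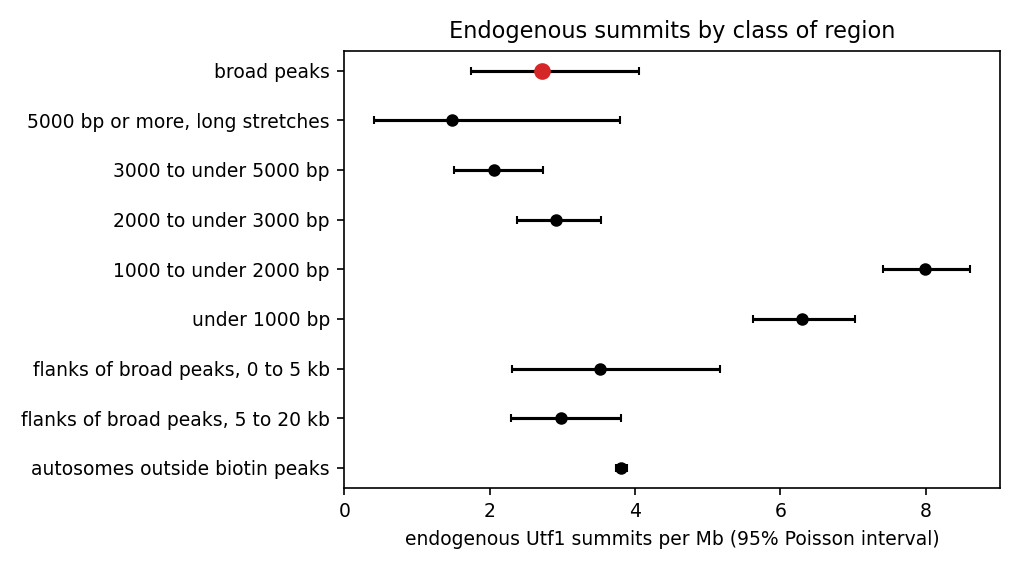
Endogenous Utf1 summits per Mb of sequence, with exact 95% Poisson intervals, in broad peaks (red), 5 other classes of biotin peaks, the flanks of broad peaks and the autosomes outside biotin peaks. Broad peaks, at 2.73 per Mb, lie beside their flanks and the peaks of 2000 to under 5000 bp, and below the peaks under 2000 bp.

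The density of biotin peaks moved with this difference. In windows with up to 40 biotin peaks, broad peaks held 44.6 endogenous summits per Mb (23.0 to 77.9) and other biotin peaks 23.9. In the next classes the values were 7.10 and 5.94 at 41 to 80, and 1.84 and 3.21 at 81 to 150. Above 150 they were 0.842 (0.274 to 1.97) and 1.54 (1.27 to 1.83). The ratio of broad to other peaks was 1.86 (0.958 to 3.28), 1.19, 0.572 and 0.549 (0.175 to 1.32) from the sparsest to the densest class, and each of the 4 intervals includes 1. With the other peaks weighted to the density classes of the broad peaks, the ratio was 0.958 (0.614 to 1.43). That interval includes 1. It overlaps the interval of the ratio without weighting, 0.463 (0.295 to 0.692), and both ratios use the same 24 summits.

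**Figure D5:**
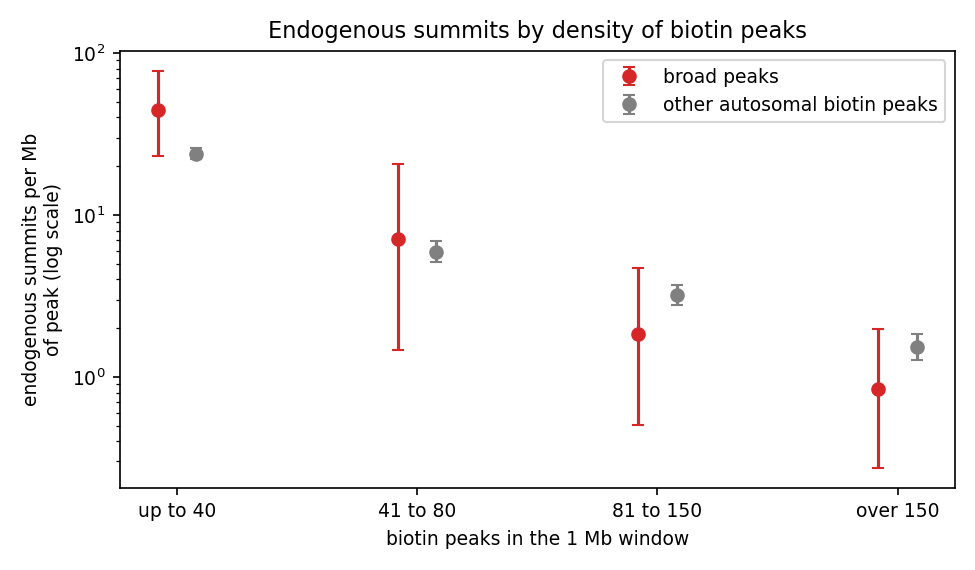
Endogenous summits per Mb of peak, on a log axis with exact 95% Poisson intervals, for broad peaks (red) and other autosomal biotin peaks (grey) in 1 Mb windows grouped by their number of biotin peaks. Both fall from the sparsest class, 44.6 and 23.9, to the densest, 0.842 and 1.54.

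Most endogenous summits fell on the few broad peaks with a low biotin fold. The 75 broad peaks with a fold under 5 were 0.472 Mb long in all and held 17 of the 24 summits, 36.0 per Mb (21.0 to 57.7). Those of them that began at 4 Mb or above, 70 peaks, held 8 summits, 18.4 per Mb (7.93 to 36.2). The other 1278 held 7 summits in 8.33 Mb, 0.840 per Mb (0.338 to 1.73). That was 0.143 times (0.0572 to 0.295) the rate of other autosomal biotin peaks of every fold and length. Peaks of 3000 to under 5000 bp with a fold of 5 or more held 1.20 per Mb (0.772 to 1.79). This interval overlaps that of the 1278. By number, 10 of the 75 had an endogenous peak, 13.3% (6.58 to 23.2), and 11 of the 1278, 0.861% (0.430 to 1.53). The 17 summits thus lay on at most 10 peaks. Intervals per Mb take each summit as independent, so they are too narrow where 1 peak holds several. By narrower steps of fold, 8 of 503 broad peaks with a fold of 5 to under 8 had one, 1 of 400 at 8 to under 10 and 2 of 375 at 10 or more.

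The same order was seen in peaks of 3000 to under 5000 bp, where 7.73 summits per Mb (4.90 to 11.6) fell on those with a fold under 5 and 1.20 (0.772 to 1.79) on the rest. Over all other autosomal peaks the order was the reverse, 5.09 and 6.70 per Mb. Of the 75, 11 lay in windows with up to 40 biotin peaks, and of the 1278, 29 did. In windows with more than 40, broad peaks with a fold under 5 held 15.3 per Mb (5.62 to 33.3) and the rest 0.737 (0.270 to 1.60). Broad peaks with no other peak within 1000 bp held 17 of the 24 summits, 6.66 per Mb (3.88 to 10.7), against 1.12 (0.450 to 2.31) for the joined ones. The ratio of lone broad peaks to other biotin peaks was 1.13 (0.656 to 1.82), an interval that includes 1. Lone broad peaks that began at 4 Mb or above held 8 summits, 3.19 per Mb (1.38 to 6.28). This interval overlaps that of the joined ones. Among broad peaks with a fold of 5 or more, the lone and the joined held 0.842 and 0.839 per Mb, on 2 and 5 summits. Among those with a fold under 5 they held 84.0 (47.0 to 139) and 6.82 (0.826 to 24.6). The 84.0 rests on 15 summits that lay on at most 9 of 27 peaks, so its interval is too narrow. Of these 27 peaks, 4 began below 4 Mb.

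The endogenous peaks on broad peaks were themselves unusual in tags. The 21 broad peaks overlapped 29 endogenous peaks, with 13 to 4648 tags and a median of 24, where the median of all autosomal endogenous peaks was 14. Over 20 tags were listed for 18 of the 29 (62.1%) and for 1011 of all 9612 (10.5%). Their endogenous folds were 0.80 to 3.13 with a median of 1.44, below the median of 1.57 of the whole autosomal list. Broad peaks with an endogenous peak of over 20 tags numbered 11, 0.813% (0.407 to 1.45), and across all autosomal biotin peaks that share was 0.150%. In peaks of 5000 bp or more in long stretches it was 0.612% (0.0742 to 2.19), an interval that includes the value of the broad peaks. With an endogenous peak of at most 20 tags there were also 11, where all biotin peaks gave 1.04%. An endogenous fold of 2 or more was listed on 5 broad peaks, 0.370% (0.120 to 0.860), against 0.127% of all and 0.306% of those in long stretches, and one under 2 on 18, 1.33% (0.790 to 2.09), against 1.07%.

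Several of these broad peaks lay near the start of the assembled chromosome. Of the 8 broad peaks that began below position 4 Mb, 4 held 9 of the 29 endogenous peaks. On chromosome 4, 3007013 to 3013935 held 804 biotin tags at a fold of 2.07, and an endogenous peak of 596 tags and a fold of 1.21 covered it whole. Also on chromosome 4, 3101537 to 3110012 had 789 biotin tags and 3 endogenous peaks of 85, 23 and 66 tags. On chromosome 17, 3029209 to 3034328 had 321 biotin tags, a fold of 2.67 and 3 endogenous peaks of 191, 61 and 46 tags. The fourth lay on chromosome 18, with a fold of 3.11 and 2 endogenous peaks. Without the 8, broad peaks held 1.71 summits per Mb (0.960 to 2.83). With the other biotin peaks that began below 4 Mb left out as well, the ratio was 0.293 (0.164 to 0.486), a setting chosen after the 8 were seen to hold 9 of the 24 summits.

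Elsewhere, 2 more broad peaks held several endogenous peaks. On chromosome 7, 71226906 to 71231981 had the fewest tags of all members, 236, with a fold of 2.03, and 3 endogenous peaks of 13, 40 and 31 tags. Also on chromosome 7, 7248159 to 7253990 had 767 tags, a fold of 4.92 and 2 endogenous peaks of 27 and 53 tags. The peak of 10420 tags on chromosome 17 was matched by an endogenous peak at 39979436 to 39986231, where 4648 tags were listed at a fold of 0.82, and the 2 summits were 127 bp apart.

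Ranked by endogenous fold, the first broad peak was chromosome 17, 27169049 to 27179055, with 1174 tags and a biotin fold of 9.75. Its endogenous peak, of fold 3.13 and 24 tags (15.4 to 35.7), overlapped it by 289 bp at one end, and the summits were 8555 bp apart. Next came chromosome 4, 141733441 to 141738510, whose folds were 6.22 for biotin and 2.68 for endogenous Utf1, the latter on 21 tags (13.0 to 32.1). The peak on chromosome 7 at 7248159 followed with an endogenous fold of 2.29, and after it chromosome 3, 96644456 to 96649507, with 2.22. Broad peaks with a biotin fold over 10 and an endogenous peak were 2 in number, chromosome 5, 145672555 to 145677875, and chromosome 13, 99759956 to 99765128. Both had an endogenous fold of 1.96, on 15 and 13 tags, and summits 79 and 466 bp apart.

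Endogenous summits were not detectably drawn to the biotin summit within broad peaks. Within 500 bp of it lay 6 summits, 4.44 per Mb (1.63 to 9.67), and farther away 18, 2.42 per Mb (1.43 to 3.82), a ratio of 1.84 (0.597 to 4.83). Of the 29 pairs, 6 had summits within 500 bp, and the median distance was 1552 bp. The outer 1000 bp at each end held 2.96 summits per Mb and the inner part 2.62, which their intervals do not separate.

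The endogenous list had few broad peaks of its own. Autosomal endogenous peaks of 5000 bp or more numbered 15 of 9612, 0.156%, and 1.12% of autosomal biotin peaks were that long. Of the 15, 3 lay on a broad biotin peak and 5 on any biotin peak. The 3 were those on chromosome 4 at 3006121 to 3013961, on chromosome 17 at 39979436 to 39986231 and on chromosome 18. The broad endogenous peaks had folds of 0.77 to 1.90, and the broad biotin peaks 1.47 to 20.16, each as its own list gives them.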

How the data were processed

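Biotin-tagged and endogenous Utf1 were precipitated from KH2 mouse embryonic stem cells, with 1 library each. The authors deposited 1 peak list per library. Tags are raw whole-number counts per peak, per the file headers. Significance is 10 times the −log10 of a p-value, fold enrichment is a linear ratio, and FDR is given in percent, all the authors' values per the file headers. Per the submitters' processing notes, R 2.15.2, BWA 0.5.7 and the build mm9 were used, with no roles stated. The sources used here do not give the peak caller, its settings or its control.

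Peaks on chromosomes 1 to 19 were kept, and joined into stretches where at most 1000 bp lay between them. Summits were counted from the peak start. Overlap needed at least 1 bp. Summits per Mb carry exact Poisson intervals, shares exact Clopper-Pearson intervals and ratios of rates exact conditional binomial intervals, all at 95%. Intervals on summits take each summit as independent, although 5 broad peaks overlapped 2 or more endogenous peaks. The interval of the ratio at equal density takes the rate of the other peaks as fixed. No p-values are given, since each group has 1 library. Density classes count biotin peaks by summit in windows of 1 Mb. Flanks leave out all biotin peaks. Members and settings were chosen with earlier results of these data known. Named regions were the 8 with the largest fold, the 8 longest, the 8 densest in tags, the 5 of smallest fold, the 8 of largest endogenous fold, those with 2 or more endogenous peaks and the 5 on each side of each threshold; positions on chromosome 18 are left out. The calculation was tested on simulated lists, and bedtools 2.31.1 gave identical numbers of overlapped peaks and of stretches. Calculations used scipy 1.17.1, pandas 2.3.3 and numpy 2.4.6 under Python 3.11.15, and plots matplotlib 3.10.9. Alternatives changed the length, join and stretch limits, the members or endogenous peaks kept, the overlap needed and the regions compared. Gene positions were not analysed here.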

Additional observations from a re-analysis of the deposited data

How the results depend on the processing

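Of 69 alternative values for 6 results, 42 stayed within the interval of the reported value, or within 1.5 times a count or a ratio of medians, 24 moved and 3 reversed. Settings on chromosome starts, on tags per kb and on endogenous peaks of at most 20 tags were chosen after seeing the data. The number of broad peaks, 1353, became 2967 from 4000 bp, 255 from 7500 bp, 885 when joining up to 2000 bp and 400 with no other peak within 1000 bp. The share with an endogenous peak, 1.55%, became 2.75% from 7500 bp, 0.861% with a fold of 5 or more, 3.00% with no other peak within 1000 bp, 0.961% for endogenous peaks of 16 tags or more, 0.370% for those of at least 2-fold enrichment, 0.813% for those of at most 20 tags and 0.222% with summits within 250 bp. Summits per Mb, 2.73, became 0.840 with a fold of 5 or more, 6.66 with no other peak within 1000 bp, 1.71 without the chromosome starts, 0.454 for endogenous peaks of at least 2-fold enrichment and 0.795 for those of at most 20 tags. The ratio to other biotin peaks, 0.463, reversed to 1.13 (0.656 to 1.82) with no other peak within 1000 bp. It reversed to 1.09 (0.649 to 1.72) for endogenous peaks of 16 tags or more. Against peaks of 3000 to under 5000 bp it reversed to 1.33 (0.777 to 2.22). All 3 intervals include 1, so the direction is not settled. The ratio became 0.958 at equal density, 0.774 against the flanks and 0.143 with a fold of 5 or more among broad peaks only. It was 0.291 without the chromosome starts among broad peaks, 0.293 without them on both sides and 0.153 for endogenous peaks of at most 20 tags. Apart from fewer peaks, the cause was not tested. Broad peaks had 1.86 times the median tags per kb of other peaks, 1.08 times that of peaks of 3000 to under 5000 bp and 1.01 times that of peaks in long stretches. The share of central summits stayed within its interval under all 8 settings. No paired analysis was possible because each group has 1 library, so none could be left out either. Positions relative to genes were not run. The 24 endogenous summits limit every statement on the endogenous list.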
